A study of Saccharomyces cerevisiae with 6 samples.

Results

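The ATG genes of budding yeast, which encode the machinery of autophagy, were taken from an expression array study of a PUN1 deletion. A probe set was a member when its gene symbol in the platform's annotation was ATG followed by a number. This gave 34 probe sets for 34 genes, 1 each, out of 5449 tested genes of Saccharomyces cerevisiae. Of these, 15 form the core machinery (ATG1 to ATG5, ATG7 to ATG10, ATG12 to ATG14 and ATG16 to ATG18) and 19 are the selective and other ATG genes. ATG6, the remaining core gene, is listed under its other name VPS30 and is described with the lipid kinase and counted with the pathway genes. The deletion strain lacked PUN1 and was described as a homozygous diploid of the filamentous Σ1278b background, with 3 arrays. The wild type was a diploid of the same background, also with 3 arrays. Cells of both strains grew in rich medium to an OD600 of 0.6 and spent 6 h in low-nitrogen SLAD medium with 2% glucose before RNA was taken, per the labels' protocols, which call the 3 samples of each strain biological replicates and do not say how many independent deletion strains were used.

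Autophagy delivers cytoplasm and organelles to the vacuole inside double-membrane vesicles, and in yeast it is induced when nitrogen is scarce. Atg1 kinase and its partners start the process once TOR complex 1 is less active. Vesicles carrying Atg9 and a phosphatidylinositol 3-kinase complex then build the isolation membrane, and a pair of ubiquitin-like conjugation systems attach Atg8 to its lipid. Selective forms use receptors that tie a cargo, such as mitochondria, peroxisomes or vacuolar enzymes, to Atg8 and to the scaffold Atg11. The vacuole finally breaks down the vesicle and exports the products.

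PUN1 was measured first as a check of the labels. It read 8.33, 4.83 and 4.93 (log2) on deletion replicates 1, 2 and 3, against 13.35, 13.50 and 13.55 on wild-type replicates 1, 2 and 3. The difference was -7.43 (limma, adjusted p = 0.00169), and deletion replicate 1 alone of the deletion arrays was above background. The deletion arrays did not show the mating-type expression of an a/alpha diploid; ploidy itself was not measured. All 5 alpha-specific and all 9 haploid-specific markers were called higher. The 2 genes taken as markers of a/alpha diploids, HMRA1 and IME4, were called lower. None of 7 a-specific markers was called by limma (2 at an unadjusted p under 0.05). HMRA1 stayed below background on all 3 deletion arrays. Summed on the linear scale, the alpha-specific markers reached 49999 to 53631 on deletion arrays and 1722 to 1956 on wild-type arrays, and the haploid-specific markers 26070 to 26737 and 1990 to 2075. The a-specific sums were 794 to 905 on deletion arrays and 905 to 1032 on wild-type arrays. Those of HMRA1 and IME4 together were 68.0 to 81.3 and 1057 to 1263, and no marker was listed at 0. The loss of PUN1 and the mating-type difference cannot be told apart in any comparison given here. A single 25S ribosomal RNA control probe set, of several on the array, read 9.07, 11.28 and 12.53 (log2) on deletion replicates 1, 2 and 3. On wild-type replicates 1, 2 and 3 it read 12.81, 9.06 and 8.85. It was thus high on 2 deletion arrays and 1 wild-type array, and arrays are called high in 25S by this probe set alone. The mean over all 25S control probe sets was 6.92, 7.90 and 8.64 on the deletion arrays and 8.52, 6.97 and 6.81 on the wild-type arrays. Pairs of arrays correlated across probe sets at 0.996 to 0.999 within a group and at 0.976 to 0.981 between groups. Precision is limited by the number of arrays.

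Setting the deletion arrays against wild type asks which ATG transcripts differed after 6 h in low nitrogen. All differences below are log2 values, deletion minus wild type, from limma fitted across 5498 probe sets, with Benjamini-Hochberg adjustment over all of them and a call at an adjusted p under 0.05. Of the 34 ATG genes, 8 were called higher and 3 lower in the deletion arrays, and 23 were not called. Over all tested probe sets, 15.8% were called higher, 9.82% lower and 25.6% in either direction. The shares among ATG genes were 23.5%, 8.82% and 32.4%, near those of the background. After a further median centring of the arrays, 700 tested genes were called higher and 710 lower, against 866 and 539 as deposited, while the ATG counts stayed at 8 and 3. After a further quantile normalization 4 ATG genes were called higher and 4 lower. Groups did not overlap for 10 ATG genes with deletion higher and 4 with deletion lower, against 26.7% and 18.1% of all probe sets (44.8% in either direction). In RNA from whole cultures, fewer cells of a type and less RNA per cell cannot be told apart.

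Core and non-core genes are described separately. Of the 15 core genes, 2 were called higher (ATG5 and ATG10), 2 lower (ATG1 and ATG18) and 11 were not called. Of the 19 selective and other genes, 6 were called higher (ATG22, ATG23, ATG32, ATG34, ATG36 and ATG39), 1 lower (ATG41) and 12 were not called. Called higher were 13.3% of the core genes and 31.6% of the others, and called lower 13.3% and 5.26%. Over all probe sets the shares were 15.8% and 9.82%. After quantile normalization 2 of the others were called higher. The median difference was -0.04 over the core genes and 0.10 over the others, beside 0.02 over all tested genes. Without wild-type replicate 2 the core median was 0.01. Without the 3 arrays of high 25S signal the median of the others was -0.01. The core differences ran between -0.33 and 0.42, and those of the other genes between -1.79 and 0.69. No difference of 0.5 or more was called among core genes. Among the others 4 genes (ATG22, ATG36, ATG41 and, against wild-type values mostly below background, ATG39) reached it, and 6.42% of all probe sets did. The difference between core and other genes was not tested.

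**Figure D1:**
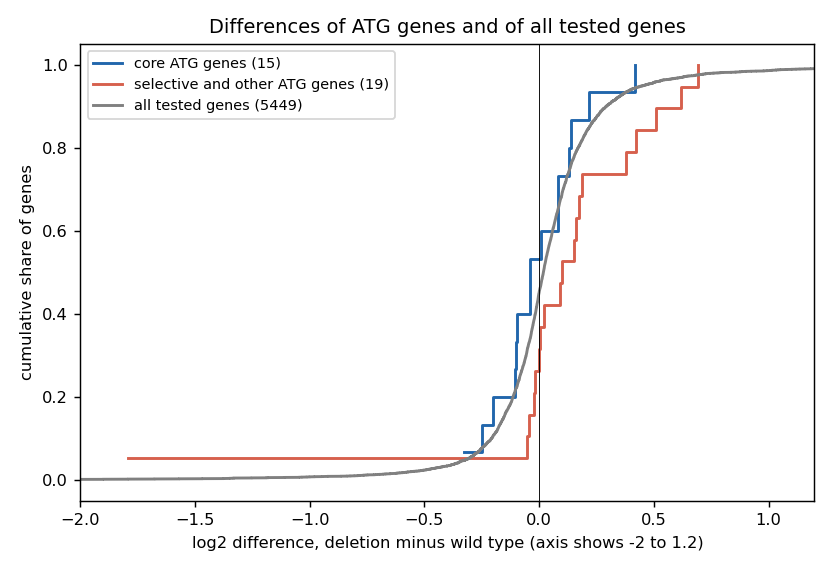
Cumulative share of genes (y axis) by log2 difference, deletion minus wild type (x axis, shown between -2 and 1.2), for the core ATG genes, the selective and other ATG genes and all tested genes. The core line stays between -0.33 and 0.42, and the line of the other genes starts at -1.79 with ATG41 and ends at 0.69 with ATG39.

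The probe sets were bright enough to read. On all 6 arrays 33 of the 34 genes were above background, the 95th percentile of probe sets for genes of Schizosaccharomyces pombe, which share the array. ATG39 was the exception, above background on all 3 deletion arrays and on 1 wild-type array. Of all tested probe sets, 96.8% had a mean over the 6 arrays above the background of such means. The array also carries 17 probe sets for ATG orthologs of S. pombe. None of their 102 array values was above background, and the highest was 5.29 (log2). These probe sets are among those that set the background, so values below it were largely fixed by construction and test nothing.

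**Figure D2:**
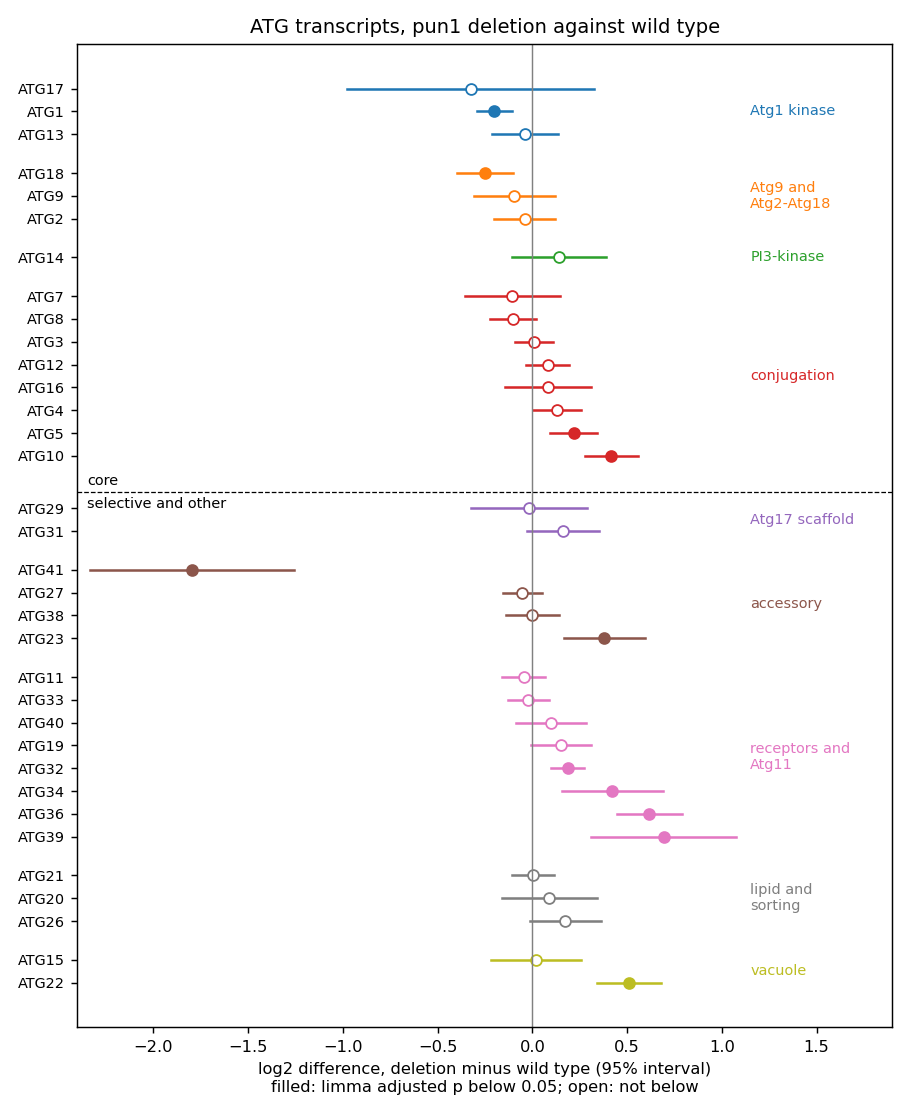
Log2 difference, deletion minus wild type (x axis), with its 95% interval for each ATG gene, grouped by role; filled circles passed an adjusted p of 0.05. Every gene of the Atg1 kinase and Atg9 groups of the core lies left of 0, but only ATG1 and ATG18 of these were called. ATG10 is the core gene farthest to the right at 0.42, and ATG41 stands alone at -1.79.

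The Atg1 kinase complex had 1 called gene among its 3 core members, where 25.6% of all probe sets were called. All 3 had differences below 0, as had 2461 of the 5449 tested genes, and the intervals of ATG13 and ATG17 spanned 0. ATG1 (YGL180W), the kinase that starts autophagosome formation, read 10.04, 10.06 and 10.02 (log2) on the deletion arrays, against 10.20, 10.27 and 10.25 on the wild-type arrays. The groups did not overlap, and every deletion array was lower. ATG1 fell by 0.20 on the log2 scale (SE 0.04, n = 3 per group, adjusted p = 0.0115), which puts it at 87.0% of wild type (95% interval 81.6% to 92.8%). The call held when any 1 array was left out.

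ATG13 (YPR185W), the regulatory subunit that TOR complex 1 phosphorylates, read 9.59, 9.71 and 9.66 on the deletion arrays and 9.54, 9.79 and 9.75 on the wild-type arrays. The groups overlapped, and the difference of -0.04 had a 95% interval of -0.21 to 0.13. ATG17 (YLR423C), which scaffolds the complex in starvation, read 7.66, 7.89 and 8.03 on the deletion arrays and 7.59, 8.22 and 8.75 on the wild-type arrays. It had the widest spread of the ATG genes, with the lowest and the highest value both on wild-type arrays. Its difference of -0.33 was not called (SE 0.27, adjusted p = 0.422), and without wild-type replicate 1 it was -0.62 and called (adjusted p = 0.0467). The partners of Atg17 in the scaffold, ATG29 and ATG31, differed by -0.02 and 0.16 and were not called.

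Atg9 and the Atg2-Atg18 complex, which moves lipid into the growing membrane, likewise had 1 called gene of 3, beside 25.6% of all probe sets. ATG18 (YFR021W), which binds phosphatidylinositol 3-phosphate, read 9.97, 10.11 and 10.14 on the deletion arrays and 10.27, 10.41 and 10.29 on the wild-type arrays. All deletion arrays were lower, and the gene fell by 0.25 on the log2 scale (SE 0.06, adjusted p = 0.028). The call was lost without deletion replicate 1 or 2 or wild-type replicate 2 or 3 (adjusted p = 0.0511 to 0.0855), and with all non-control probe sets in the fit (adjusted p = 0.0646).

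ATG9 (YDL149W), the membrane protein of the seed vesicles, read 8.47, 8.47 and 8.48 on the deletion arrays and 8.35, 8.68 and 8.67 on the wild-type arrays. Wild-type replicate 1 lay below the deletion arrays and the other wild-type arrays above them, and the difference of -0.09 was not called (adjusted p = 0.478). Without wild-type replicate 1 it was -0.20 and called (adjusted p = 0.019), and after quantile normalization of all 6 arrays it was -0.24 and called (adjusted p = 0.0372). ATG2, the lipid transfer protein, differed by -0.04 (95% interval -0.20 to 0.12).

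ATG41 had the largest difference of any ATG gene. ATG41 (YPL250C) encodes a protein that interacts with Atg9 and is needed for full autophagy in starvation, and its transcription is known to depend on the amino acid regulator Gcn4. It read 9.93, 9.93 and 10.07 (log2) on the deletion arrays, against 11.20, 11.97 and 12.14 on the wild-type arrays. The deletion arrays lay within a narrow range and all below the lowest wild-type array, which was replicate 1. ATG41 fell by 1.79 on the log2 scale (SE 0.23, n = 3 per group, adjusted p = 0.00213), to 28.8% of wild type (95% interval 19.9% to 41.9%). Leaving out any 1 array gave -1.61 to -2.08 with the call kept. The transcript of GCN4 itself, a gene controlled largely in translation and named here after its value was seen, differed by 0.05 (SE 0.04, adjusted p = 0.46).

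The other accessory factors of Atg9 and of the lipid kinase did not share that change. ATG23 (YLR431C), a peripheral protein that carries Atg9 forward, read 8.45, 8.71 and 8.79 on the deletion arrays and 8.31, 8.28 and 8.22 on the wild-type arrays. Every deletion array was higher, and the difference was 0.38 (SE 0.09, adjusted p = 0.0236). That call was lost without deletion replicate 2 or 3 or wild-type replicate 2 or 3 (adjusted p = 0.0667 to 0.084), and after quantile normalization (0.24, adjusted p = 0.103). ATG27, its membrane partner in Atg9 transport, differed by -0.05 (95% interval -0.15 to 0.05).

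The phosphatidylinositol 3-kinase complex I had no called gene. ATG14 (YBR128C), the subunit that directs the kinase to autophagy, read 7.28, 7.40 and 7.62 on the deletion arrays and 7.17, 7.44 and 7.27 on the wild-type arrays. The groups overlapped and the difference was 0.14 (95% interval -0.11 to 0.39, adjusted p = 0.364). ATG38, which holds the complex together, differed by 0.00 (95% interval -0.14 to 0.14). VPS30, the shared subunit also called ATG6, read 10.04, 10.27 and 10.29 on the deletion arrays and 9.80, 10.09 and 9.89 on the wild-type arrays. Its difference of 0.27 was not called (adjusted p = 0.0787), but was 0.35 and called without deletion replicate 1 or wild-type replicate 2 (adjusted p = 0.0354 and 0.0481). With the replicate number as a block it was also called (adjusted p = 0.0228).

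**Figure D3:**
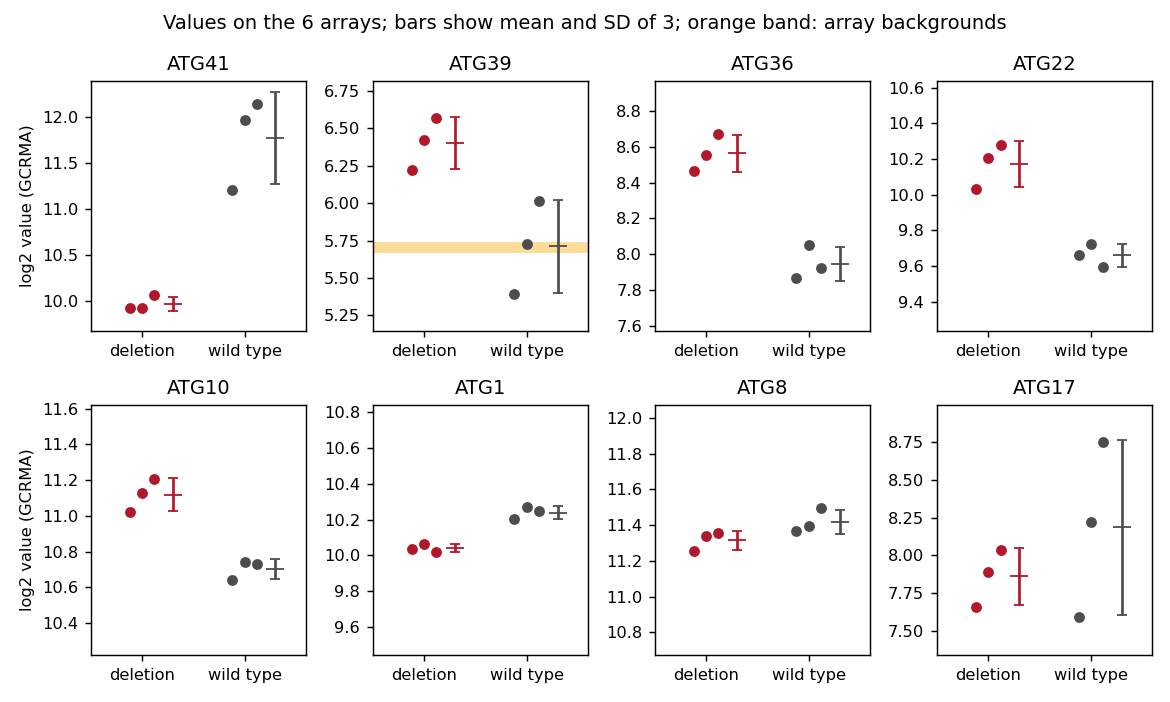
Log2 values of 8 ATG genes on each array (points; deletion left, wild type right, replicates 1 to 3 side by side), with the mean and SD of 3 arrays as bars and, where it falls on the axis, the range of array backgrounds as an orange band. ATG41 is lower on every deletion array, ATG39, ATG36, ATG22 and ATG10 are higher on every deletion array, and the ATG17 groups overlap.

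The conjugation systems were the largest core group, and 2 of their 8 genes were called, both higher and both on the Atg12 side. That is 25% of the group, where 15.8% of all probe sets were called higher and 25.6% in either direction. ATG10 (YLL042C), the conjugating enzyme that joins Atg12 to Atg5, read 11.02, 11.13 and 11.21 (log2) on the deletion arrays and 10.64, 10.74 and 10.73 on the wild-type arrays. The groups were well apart, and the difference was 0.42 (SE 0.06, adjusted p = 0.00333), or 133% of wild type (95% interval 121% to 147%). It was called under each of the 15 alternatives tried. Several of these, such as averaging the probe sets of a gene, left the difference of every ATG gene unchanged. ATG5 (YPL149W), the acceptor of Atg12, read 12.25, 12.32 and 12.41 on the deletion arrays and 12.07, 12.11 and 12.16 on the wild-type arrays, a difference of 0.22 (SE 0.05, adjusted p = 0.0257). The ATG5 call was lost without deletion replicate 2 or 3 or wild-type replicate 1 or 2 (adjusted p = 0.0615 to 0.0831), and with all non-control probe sets in the fit (adjusted p = 0.0675).

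ATG8 (YBL078C), the ubiquitin-like protein that coats the membrane, read 11.25, 11.34 and 11.35 on the deletion arrays and 11.36, 11.39 and 11.49 on the wild-type arrays. The highest deletion value lay just below the lowest wild-type value, and the difference of -0.10 was not called (95% interval -0.22 to 0.02, adjusted p = 0.196). The enzymes that process and activate Atg8 were not called either. ATG7, the activating enzyme of both systems, differed by -0.11, ATG3, the conjugating enzyme for Atg8, by 0.01, and ATG4, the protease that matures and recycles Atg8, by 0.13 (adjusted p = 0.114). ATG4 was 0.18 and called without deletion replicate 1 (adjusted p = 0.0333). ATG12 and ATG16, which complete the ligase with Atg5, each differed by 0.08.

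Receptors and the scaffold of selective autophagy had 4 called genes of 8, all higher, and a median of 0.17, where 15.8% of all probe sets were called higher and 25.6% in either direction. After quantile normalization, and without the 3 arrays of high 25S signal, ATG36 was the only one of the 4 still called. ATG36 (YJL185C), the receptor for peroxisomes, read 8.46, 8.56 and 8.67 (log2) on the deletion arrays and 7.86, 8.05 and 7.92 on the wild-type arrays. Each deletion array was above every wild-type array, and the difference was 0.62 (SE 0.07, adjusted p = 0.00152), or 153% of wild type (95% interval 136% to 173%). ATG36 was called under each of the 15 alternatives, between 0.45 and 0.67.

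ATG39 (YLR312C), the receptor for the perinuclear endoplasmic reticulum and parts of the nucleus, read 6.22, 6.43 and 6.57 on the deletion arrays and 5.39, 5.73 and 6.01 on the wild-type arrays. Array backgrounds were 5.67 to 5.68 on deletion arrays and 5.70 to 5.74 on wild-type arrays, and wild-type replicates 1 and 2 lay below that level. The difference was 0.69 (SE 0.16, adjusted p = 0.0221), with only 1 of 3 wild-type arrays above background, so its size is uncertain. The call was lost without deletion replicate 2 or 3 or wild-type replicate 2 (adjusted p = 0.0653 to 0.077), and after quantile normalization it was 0.46 (adjusted p = 0.0529).

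ATG34 (YOL083W) and ATG19 (YOL082W) are neighbouring relatives that carry vacuolar enzymes to the vacuole. ATG34 read 8.79, 9.01 and 9.10 on the deletion arrays and 8.57, 8.71 and 8.35 on the wild-type arrays, a difference of 0.42 (SE 0.11, adjusted p = 0.0349). Its groups did not overlap, but the call was lost without deletion replicate 2 or 3 or wild-type replicate 1 or 3 (adjusted p = 0.06 to 0.109). It was also lost after quantile normalization (0.32, adjusted p = 0.0541) and with all non-control probe sets in the fit (adjusted p = 0.061). ATG19 differed by 0.15 (95% interval -0.01 to 0.31) and was not called, except without deletion replicate 1 (0.21, adjusted p = 0.0389). Whether the probe sets of these relatives share signal was not tested.

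ATG32 (YIL146C), the receptor for mitochondria, read 9.61, 9.65 and 9.61 on the deletion arrays and 9.43, 9.42 and 9.45 on the wild-type arrays. Replicates lay close together, and the small difference of 0.19 was called (SE 0.04, adjusted p = 0.0119). The call was lost without deletion replicate 2 (0.17, adjusted p = 0.0627), after quantile normalization (0.14, adjusted p = 0.0511) and with all non-control probe sets in the fit (adjusted p = 0.0523). ATG33, another mitophagy factor, differed by -0.02 and ATG40, a receptor for the endoplasmic reticulum, by 0.10, and neither was called. ATG11 (YPR049C), the scaffold that receptors bind, read 11.36, 11.28 and 11.39 on the deletion arrays and 11.41, 11.42 and 11.33 on the wild-type arrays. The groups overlapped, with a difference of -0.04 (95% interval -0.16 to 0.07).

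Genes of the last steps and of lipid handling were mostly not called. ATG22 (YCL038C), a vacuolar exporter of amino acids released by breakdown, read 10.03, 10.21 and 10.28 (log2) on the deletion arrays and 9.67, 9.72 and 9.60 on the wild-type arrays. All deletion arrays were higher, and the difference was 0.51 (SE 0.07, adjusted p = 0.00324), or 142% of wild type (95% interval 127% to 160%), called under each of the 15 alternatives. ATG15, the vacuolar lipase that opens the inner vesicle, differed by 0.02 (95% interval -0.22 to 0.26). ATG20, a sorting nexin, ATG21, which binds phosphatidylinositol 3-phosphate, and ATG26, a sterol glucosyltransferase, differed by 0.09, 0.00 and 0.17 and were not called.

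For 22 of the 23 genes not called, the 95% interval lay within 0.5 log2 units of 0. ATG17 was the exception. The next widest bounds were 0.39 for ATG14 upward and -0.36 for ATG7 downward.

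Single arrays stood out over the ATG genes. Deletion replicate 1 was the lowest of the deletion arrays for 28 of the 34 genes, against 44.1% of all tested genes. Wild-type replicate 1 was the lowest of the wild-type arrays for 24 of the 34, against 43.5% of all tested genes. Mean deviations from the wild-type mean were -0.08, 0.01 and 0.06 for core genes on deletion replicates 1, 2 and 3, and -0.12, 0.06 and 0.05 on wild-type replicates 1, 2 and 3. For the selective and other genes they were 0.00, 0.12 and 0.13 on deletion arrays and -0.11, 0.06 and 0.05 on wild-type arrays. Receptors and Atg11 averaged 0.17, 0.30 and 0.33 on deletion arrays and -0.06, 0.07 and 0.00 on wild-type arrays. ATG34, ATG36 and ATG39 had the largest differences in that mean, while ATG11, ATG19, ATG33 and ATG40 were not called.

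The 25S control was high on deletion replicates 2 and 3 and wild-type replicate 1. Without these 3 arrays, which leaves 1 deletion array assumed to vary like the wild-type arrays, ATG1, ATG5, ATG23, ATG32, ATG34 and ATG39 lost their calls (adjusted p = 0.106 to 0.36). ATG10, ATG18, ATG22, ATG36 and ATG41 were still called (adjusted p = 4.44e-05 to 0.0499), and ATG17 was called lower, at -0.83 (adjusted p = 0.0384). The median of the selective and other ATG genes was then -0.01. The part of the 25S signal in these results was not tested.

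**Figure D4:**
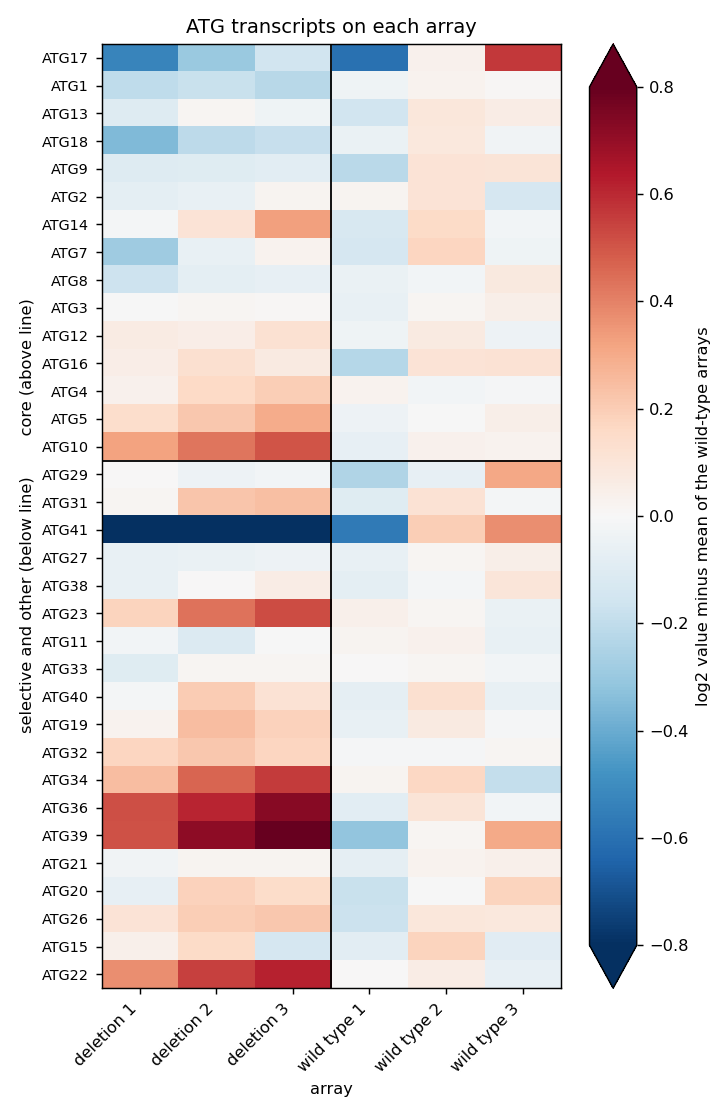
Log2 value minus the mean of the wild-type arrays (colour, limited to 0.8 either way) for each ATG gene (rows, by role) on each array (columns, deletion left). ATG41 is dark blue on all 3 deletion arrays, ATG36, ATG39 and ATG22 are red on all 3, and wild-type replicate 1 is the lowest wild-type array for 24 of the 34 genes.

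Pathway genes without an ATG name were read from 5 lists. Over 106 measured genes, 7 were called higher and 13 lower, or 6.60% and 12.3%, against 15.8% and 9.82% of all probe sets, and the median difference was 0.00. Each list has its median within 0.04 of 0.

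Upstream kinases, TOR complex 1 and its regulators had 3 genes higher, 5 lower and 27 not called of 35. That is 8.57% higher and 14.3% lower, beside 15.8% and 9.82% of all probe sets. YAK1, a kinase of slow growth, fell by 0.43 (SE 0.09, adjusted p = 0.0165), a call lost without deletion replicate 2 or 3 (adjusted p = 0.0649 and 0.0523). NPR1, a kinase that stabilises amino acid permeases, fell by 0.40 (SE 0.05, adjusted p = 0.00196). TOR1, the kinase of TOR complex 1, read 10.09, 9.98 and 9.98 on the deletion arrays and 10.35, 10.38 and 10.30 on the wild-type arrays, and fell by 0.33 (SE 0.05, adjusted p = 0.00372). NPR2, part of a complex that restrains TOR complex 1, was 0.21 higher (adjusted p = 0.0395), a call that held without wild-type replicate 2 and was lost without each of the others (adjusted p = 0.071 to 0.13), and after median centring (adjusted p = 0.0687).

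The list of transcriptional regulators, which also holds the RNA decay factors DHH1 and XRN1 and the kinase RIM15, had 2 higher, 5 lower and 16 not called of 23. That is 8.70% higher and 21.7% lower, beside 15.8% and 9.82% of all probe sets. GAT1, a GATA activator of nitrogen-regulated genes, read 9.74, 9.75 and 9.67 on the deletion arrays and 11.07, 10.98 and 11.08 on the wild-type arrays, and fell by 1.33 (SE 0.05, adjusted p = 6.16e-06). Its relative GLN3 fell by 0.32 (SE 0.09, adjusted p = 0.0471), a call lost without deletion replicate 1 or 3 or wild-type replicate 2 or 3 (adjusted p = 0.103 to 0.126). HAP4, the regulatory subunit of the activator of respiratory genes, fell by 0.59 (SE 0.10, adjusted p = 0.00715). MSN4, an activator of the general stress response, was 0.71 higher (SE 0.10, adjusted p = 0.00368).

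The machinery further along differed by less. Of 26 partners, 2 were higher, 1 was lower and 23 were not called. That is 7.69% higher and 3.85% lower, beside 15.8% and 9.82% of all probe sets. SNX41, a sorting nexin, fell by 0.32 (SE 0.04, adjusted p = 0.00315). YPT32, a secretory GTPase, and TRS33, a subunit of its exchange factor, were each 0.21 higher (adjusted p = 0.0219 and 0.0325). Leaving out 1 array ended the YPT32 call for every array but wild-type replicate 1, and the TRS33 call for every array but deletion replicate 1 (adjusted p = 0.051 to 0.093). With the replicate number as a block TRS33 was not called (adjusted p = 0.0514). None of 15 genes for fusion with the vacuole was called by limma, with 3 at an unadjusted p under 0.05 and differences between -0.18 and 0.14. PEP5, a subunit of the tethering complex at the vacuole, was -0.26 and called without wild-type replicate 1 (adjusted p = 0.0337). Of 9 cargo and vacuolar hydrolase genes, LAP3 and PEP4 were lower and 7 were not called. That is 22.2% lower, beside 9.82% of all probe sets. LAP3, an aminopeptidase, fell by 0.20 (adjusted p = 0.0129) and PEP4, the proteinase that activates other vacuolar enzymes, by 0.18 (adjusted p = 0.0229). The call on LAP3 was lost without deletion replicate 2 or 3, and that on PEP4 without deletion replicate 1 or 3 or wild-type replicate 2 or 3 (adjusted p = 0.0523 to 0.0825). Without the 3 arrays of high 25S signal, YAK1, TOR1, NPR2, TRS33, LAP3 and PEP4 were not called (adjusted p = 0.0875 to 0.279).

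**Figure D5:**
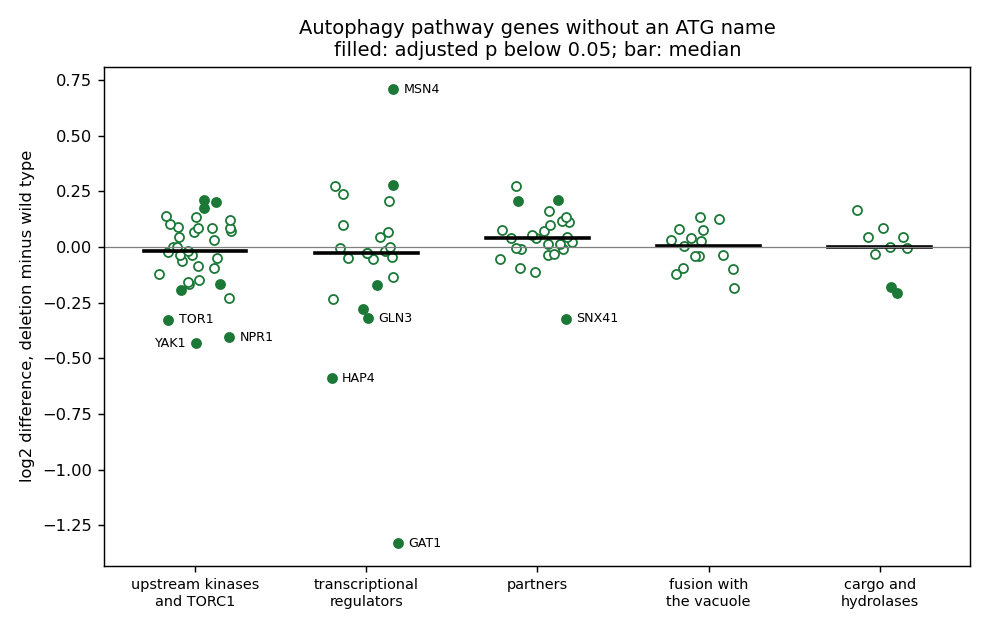
Log2 difference, deletion minus wild type (y axis), of each autophagy pathway gene without an ATG name, by list (x axis), with filled circles for an adjusted p under 0.05 and a bar at each median. GAT1 at -1.33 and MSN4 at 0.71 lie farthest from 0, and each median lies within 0.04 of 0.

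Genes next to the called ATG genes were read for their own differences, a description added after the values were seen. Of 21 measured neighbours of the 11 called genes, 3 were called, or 14.3%, beside 25.6% of all probe sets, a difference that was not tested. Of the 66 measured neighbours of all ATG genes, 19 were called, or 28.8%. ATG19 is counted among the 21 as the neighbour of ATG34, and both are counted among the 66. YPL150W beside ATG5 (0.26) and SDH2 beside ATG10 (0.31) were higher like their ATG neighbour, and ROG3 beside ATG18 was 0.88 higher while ATG18 was lower. The neighbours of ATG41, YAH1 and RPL36B, differed by -0.19 and 0.03 and were not called.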

How the data were processed

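RNA from 3 deletion and 3 wild-type cultures was hybridised to 1-colour Affymetrix yeast arrays. The authors deposited log2 expression values, 1 per probe set and array; GCOS 1.1, GCRMA and limma are named, per the submitters' processing notes, and the log base was read from the values' range. No array scan was used here. The platform annotation named 1 gene for 7244 of 10928 probe sets, several for 1 and none for 3683; 12 symbols were updated through the RefSeq R64 table. The 5498 probe sets of S. cerevisiae genes were tested by lmFit and eBayes of limma 3.58.1 under R 4.3.3 (both strains, no covariates, two-sided), which was tested on simulated data. Calls had a Benjamini-Hochberg adjusted p under 0.05. A gene was read from its brightest probe set. Values count as above background past the level that 95% of S. pombe probe sets stay under on that array. The p-values measure the spread between these cultures.

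Replicate numbers are shared by both strains in the labels. Deviations from the group means correlated at 0.351, 0.213 and 0.112 for arrays numbered 1, 2 and 3 in both strains. For arrays of different number they correlated at -0.283 to 0.183, a range that holds the 0.112 of replicate 3. The number was also fitted as a block, but these values do not establish 3 matched pairs. The ATG genes, the pathway and marker lists and the alternatives were chosen with earlier results of these data known. Every ATG gene is accounted for; array values are given for called genes of 0.5 or more and for ATG1, ATG8, ATG9, ATG11, ATG13 and ATG14, other array values were added after they were seen, and of each pathway list up to 4 called genes with the largest differences are named (2 where none was called, of which 1 is given). Promoter and protein sequences were not used here.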

Additional observations from a re-analysis of the deposited data

How the results depend on the processing

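Fitted with limma under 15 alternatives, 4 of the 11 called ATG genes (ATG10, ATG22, ATG36 and ATG41) were called in each. Several alternatives, such as averaging the probe sets of a gene, left every ATG difference unchanged. Across alternatives 41 calls of the other 7 were lost, and none of the 11 changed sign. The 23 genes not called gained 6 calls, in 4 genes. Among these 23, 14 genes changed sign under some alternative, 37 changes in all, each without a call in either fit. With 1 array left out, 3 to 10 ATG genes were called higher and 2 to 5 lower (core 1 to 3 and 1 to 4, other genes 2 to 7 and 1), the core median was -0.04 to 0.01 and the other median 0.05 to 0.17, pathway genes gave 2 to 6 and 5 to 15, and all genes 505 to 872 and 284 to 558. PUN1 was then -8.58 to -6.83. The replicate block kept all 8 and 3 ATG calls and, beside the changes given for VPS30 and TRS33, changed no other call on a named gene. Quantile normalization gave 4 ATG genes higher (2 of them non-core) and a core median of -0.11. Fitting all non-control probe sets, S. pombe included, gave 5 ATG genes higher, 1 core gene each way, 2 and 7 pathway genes, and 564 and 324 of all genes. Without the 3 arrays of high 25S signal, 3 ATG genes were higher (1 core, 2 other), 2 and 6 pathway genes and 444 of all genes higher, and the median of the other ATG genes turned to -0.014. At a threshold of 0.01, 3 ATG genes were higher (1 core, 2 other) and 1 lower (0 core by limma, 2 at an unadjusted p under 0.05), with 2 and 5 pathway genes and 415 and 236 of all genes. Median centring gave 4 pathway genes higher and eBayes with a trend 12. Causes were not tested, and only the stricter threshold loses calls by construction. Fewer arrays did not always give fewer calls. Without deletion replicate 1, 10 ATG genes were called higher, and without wild-type replicate 1, 5 were called lower. Limits are 3 arrays a group and, for ATG39, signal near background.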
